A study of Homo sapiens with 6 samples.

Results

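YAP1 and WWTR1 (also called TAZ), the factors TEAD1 to TEAD4 and the target genes CYR61, CTGF, ANKRD1 and AMOTL2 were taken by symbol from the deposited expression table, where all 10 genes were found among 58174. CYR61 and CTGF are listed there under their older symbols and are now named CCN1 and CCN2. The table holds poly(A) mRNA-seq of KNS42, an established cell line from a pediatric glioblastoma, grown in serum-containing medium. Control cells received a control siRNA (siC, 3 libraries) and knockdown cells an siRNA pool against the RNA-binding protein Musashi1 (siMSI1, 3 libraries), and RNA was taken 72 h after transfection in both groups. The knockdown was transient and was made in 1 cell line. The labels do not say whether the libraries of a group came from separate cultures, so p-values measure only the spread between these libraries, which may be technical.

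YAP1 and WWTR1 are paralogous transcriptional coactivators that do not bind DNA themselves and act mainly through the TEAD family of DNA-binding factors. The kinases of the Hippo pathway phosphorylate both coactivators, which keeps them in the cytoplasm and marks them for degradation. Cell spreading, matrix stiffness and low cell density release them into the nucleus, so much of their control is not visible in the level of their own mRNAs. CYR61, CTGF, ANKRD1 and AMOTL2 are widely used as readouts of YAP/TEAD activity, and YAP1 is known to promote growth and invasion in glioma.

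Values are FPKM, the reads of a gene scaled to its length and to a library size that differed slightly from the reads on genes. In siC they were 0.996 to 1.004 times what scaling to the reads on genes alone would give. In siMSI1 this factor was 0.976 to 1.024. The libraries held 14448513 to 18024080 reads on genes in siC and 13087025 to 14700593 in siMSI1. MSI1 was at 64.2 ± 2.53 FPKM in siC and at 11.8 ± 0.575 FPKM in siMSI1 (SD, n = 3 each), 18.5% of the siC level. Of the markers used to check the cell type, VIM, SOX2 and NES were at 58.2 FPKM or more in every library. The endothelial, leukocyte and epithelial markers PECAM1, CDH5, VWF, PTPRC, CD14, EPCAM and CDH1 were at 0.283 FPKM or less in every library. At these low levels PECAM1 (at most 0.0086 FPKM in siC, 0.0449 to 0.0700 FPKM in siMSI1) and CDH5 (at most 0.0278 FPKM in siC, 0.102 to 0.257 FPKM in siMSI1) also lay apart between the groups. All 5 glioma and neural progenitor markers lay apart between the groups, where this held for 42.8% of all tested genes. GFAP was at 1.33 to 1.99 FPKM in siC and 4.14 to 5.04 FPKM in siMSI1, and NES, SOX2, VIM and CD44 were lower in every siMSI1 library, CD44 with 83.4 to 86.6 FPKM against 57.7 to 65.4 FPKM. Their part in the results for the YAP/TEAD genes was not tested. The comparison was made with limma on log2(FPKM + 0.1), a scale that makes fold changes of weakly expressed genes too small, for the 15069 genes with a mean of at least 0.5 FPKM. A gene was counted as changed at a Benjamini-Hochberg adjusted p of at most 0.01 over all tested genes.

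ANKRD1 fell upon MSI1 knockdown to 55.9% of its siC level and was the only one of the 10 genes past the threshold. CTGF, the most abundant member, was at 126% of its siC level, WWTR1 at 129% and TEAD3 at 70.6%, each with all siMSI1 values on one side of all siC values and an adjusted p between 0.0103 and 0.0201. YAP1, TEAD1, TEAD4, CYR61 and AMOTL2 overlapped between the groups and lay between 93.0% and 116% of the siC level. TEAD2 was close to the limit of detection and was not tested.

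Counted together, 1 of the 9 tested members was called, lower in siMSI1, where limma called 11.0% of all tested genes (5.83% lower and 5.15% higher). The 3 siMSI1 values lay apart from the 3 siC values for 4 of the 9 tested members, where this held for 42.8% of all tested genes. Both shares are near the background and are not a result about these genes. Their median log2 fold change was −0.01, and that of all tested genes was 0.00.

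**Figure D1:**
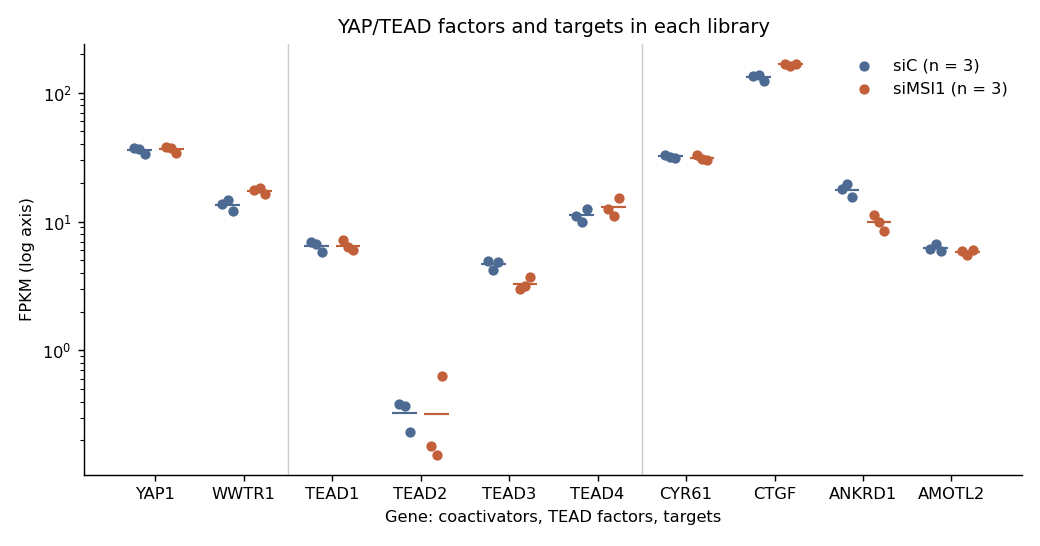
FPKM (log axis) of the 10 genes in each of the 3 siC and 3 siMSI1 libraries, as points, with the group mean as a line. The siMSI1 points of ANKRD1 and TEAD3 lie below all siC points, those of WWTR1 and CTGF lie above them, and the groups overlap for the other genes.

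The levels spanned a wide range within each group. In siC, CTGF was highest (132 ± 7.29 FPKM), followed by YAP1 (35.7 ± 1.99), CYR61 (32.0 ± 0.726), ANKRD1 (17.7 ± 2.0), WWTR1 (13.5 ± 1.32), TEAD4 (11.2 ± 1.29), TEAD1 (6.51 ± 0.594), AMOTL2 (6.24 ± 0.399), TEAD3 (4.67 ± 0.418) and TEAD2 (0.328 ± 0.0825), all mean FPKM ± SD with n = 3. Among neighbours in this order, the library values overlapped for WWTR1 with TEAD4 and for TEAD1 with AMOTL2. In siMSI1 the order was the same except that ANKRD1 moved from the fourth place to the sixth, below WWTR1 and TEAD4, and there its values overlapped those of TEAD4. Among all tested genes, the mean of CTGF stood at the percentile 98.5, that of YAP1 at 90.2 and that of CYR61 at 88.7, while TEAD3 stood at 43.4.

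YAP1 (ENSG00000137693) lies on chromosome 11 of GRCh38 from 102110447 to 102233424. It measured 37.0, 36.7 and 33.4 FPKM in the siC libraries and 37.8, 37.1 and 34.3 FPKM in the siMSI1 libraries, replicates 1 to 3 in this order here and for the genes that follow. These values overlapped almost fully, and replicate 3 was lowest in both groups. Its log2 fold change was 0.03 (95% interval −0.14 to 0.19, adjusted p = 0.81 from limma), measured with 3027 to 4184 reads in a library. AP000942.2 and AP001527.2 overlap YAP1 on the opposite strand and could share reads with it if the counting did not use the strand. Their log2 fold changes were 0.17 (limma adjusted p = 0.20, with 90 to 142 reads in a library) and −0.14 (limma adjusted p = 0.68, with 13 to 29 reads).

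WWTR1 (ENSG00000018408) encodes TAZ, the paralog of YAP1, and lies on chromosome 3 from 149517235 to 149736714. It measured 13.6, 14.7 and 12.1 FPKM in the siC libraries and 17.6, 18.2 and 16.4 FPKM in the siMSI1 libraries. Every siMSI1 library was above every siC library (two-sided exact permutation p = 0.1, which is the lowest value possible with 3 libraries in each group). The log2 fold change of 0.37 (standard error 0.0876, 95% interval 0.17 to 0.57) had an adjusted p of 0.0196 from limma and so was not past the threshold. It kept this direction in all 16 alternative fits, with adjusted p-values from 1.43e-06 to 0.0655, and passed in 3 of them. Its antisense gene WWTR1-AS1, with 36 to 44 reads per library, showed a log2 fold change of 0.18 (limma adjusted p = 0.56).

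Within each library, YAP1 made up the larger part of the coactivator mRNA. Its share of the summed FPKM of YAP1 and WWTR1 was 73.1%, 71.4% and 73.4% in siC and 68.3%, 67.2% and 67.6% in siMSI1, a mean difference (siMSI1 minus siC) of −4.96 percentage points. The groups did not overlap in this share. The summed FPKM of the pair was 49.2 ± 3.20 in siC and 53.8 ± 2.69 in siMSI1 (SD, n = 3 each), and these values overlapped.

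The TEAD factors carry the DNA-binding domain and recruit YAP1 or WWTR1 to promoters and enhancers. None of the 3 tested TEADs was past the threshold in limma. Of them, 1 (TEAD3) had an unadjusted p under 0.05, as did 5765 of all 15069 tested genes. TEAD3 (ENSG00000007866), on chromosome 6 from 35473597 to 35497079, measured 4.97, 4.19 and 4.84 FPKM in the siC libraries and 2.98, 3.2 and 3.73 FPKM in the siMSI1 libraries. Each siMSI1 library was lower than each siC library (two-sided exact permutation p = 0.1). Its log2 fold change was −0.49 (standard error 0.117, 95% interval −0.76 to −0.22, limma adjusted p = 0.0201), measured on 127 to 231 reads in a library. The direction held in the 16 alternative fits, 1 of which called it, and the adjusted p ranged from 0.00166 to 0.0834.

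TEAD4 (ENSG00000197905), on chromosome 12 from 2959330 to 3040676, was the most abundant TEAD mRNA. It measured 11.0, 9.95 and 12.5 FPKM in the siC libraries and 12.6, 11.1 and 15.2 FPKM in the siMSI1 libraries. The groups overlapped, since siMSI1 replicate 2 was below siC replicate 3. The log2 fold change of TEAD4 was 0.21 (95% interval −0.09 to 0.51, adjusted p = 0.28 from limma). TEAD1 (ENSG00000187079), on chromosome 11 from 12674421 to 12944737, measured 6.95, 6.75 and 5.84 FPKM in the siC libraries and 7.13, 6.33 and 5.98 FPKM in the siMSI1 libraries. Its group means were nearly equal, with a log2 fold change of −0.01 (95% interval −0.24 to 0.23, adjusted p = 0.97 from limma), and its sign differed between the alternative fits. The annotated genes that overlap TEAD1 had at most 1 read in any library.

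TEAD2 (ENSG00000074219), on chromosome 19 from 49340595 to 49362457, had 17, 20 and 10 reads in siC and 8, 6 and 27 reads in siMSI1, or 0.233 to 0.381 and 0.154 to 0.631 FPKM. The highest and the lowest libraries were both siMSI1 libraries, so the groups overlapped. How large a difference so few reads could show was not tested. Without the filter on low genes, its log2 fold change was −0.18 (adjusted p = 0.85 from limma).

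Shares of the TEAD mRNA pool are given as a description, with no test. The summed FPKM of TEAD1 to TEAD4 was 22.7 ± 1.21 in siC and 23.1 ± 2.40 in siMSI1 (SD, n = 3 each), and these values overlapped. TEAD3 held 21.3%, 19.7% and 20.7% of this sum in siC and 13.0%, 15.3% and 14.6% in siMSI1, a mean difference of −6.26 percentage points that was −3.84 in reads not scaled to length. TEAD4 held 47.2%, 46.8% and 53.4% in siC and 55.0%, 53.5% and 59.6% in siMSI1, so the groups only just failed to overlap. The share of TEAD1 overlapped between the groups, at 28.8% ± 3.52 in siC and 28.3% ± 4.30 in siMSI1 (SD, n = 3 each). Shares within one sum are not independent, as a lower TEAD3 raises the share of the others. The ratio of TEAD4 to TEAD3 in FPKM was 2.21, 2.37 and 2.59 in siC and 4.22, 3.49 and 4.09 in siMSI1.

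**Figure D2:**
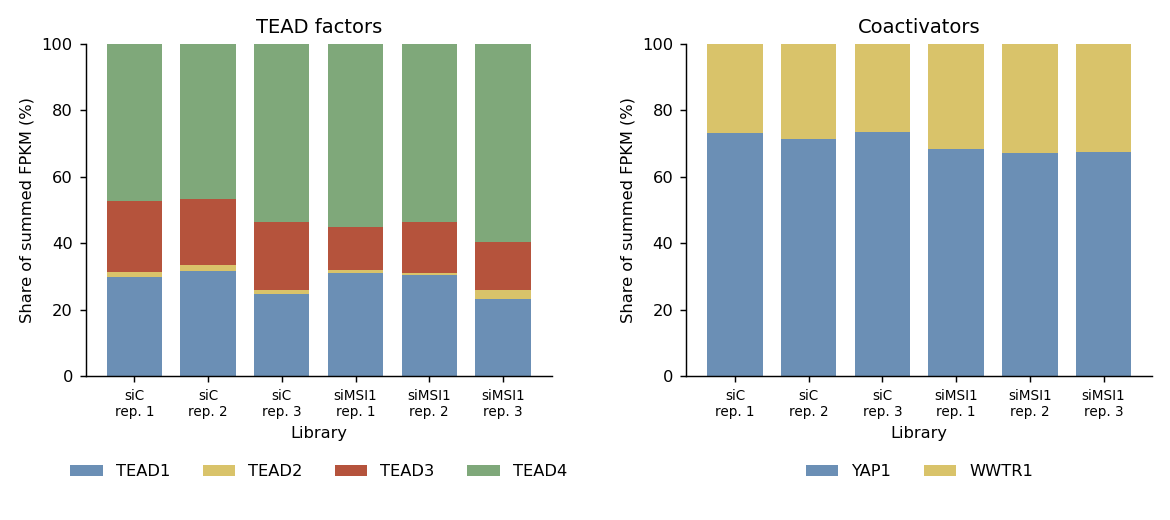
Share (%) of each TEAD in the summed FPKM of TEAD1 to TEAD4 (left) and of YAP1 and WWTR1 in their sum (right), with 1 bar per library. The TEAD3 part spans 19.7% to 21.3% in siC against 13.0% to 15.3% in siMSI1, and the YAP1 part spans 71.4% to 73.4% against 67.2% to 68.3%.

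The promoters of the targets CTGF and ANKRD1 are shown because both carry repeats of the TEAD recognition motif while their mRNAs had fold changes of opposite sign. RefSeq promoter sequences on GRCh38.p14 matched 7 of the 10 members, with 10 windows in all, and CYR61, TEAD1 and TEAD4 had no entry. The 250 bases before the start site were searched for GGAATG and its reverse complement CATTCC, and the matches are in capitals. The CTGF window is chr6:131951373-131951622 and the ANKRD1 window is chr10:90921088-90921337, both on the minus strand and written 5′ to 3′ along the gene.
CTGF: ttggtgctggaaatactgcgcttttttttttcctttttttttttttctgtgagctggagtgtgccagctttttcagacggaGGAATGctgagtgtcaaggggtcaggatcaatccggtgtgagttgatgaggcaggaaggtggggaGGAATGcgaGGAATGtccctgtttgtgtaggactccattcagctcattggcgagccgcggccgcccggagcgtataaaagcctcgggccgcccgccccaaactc
ANKRD1: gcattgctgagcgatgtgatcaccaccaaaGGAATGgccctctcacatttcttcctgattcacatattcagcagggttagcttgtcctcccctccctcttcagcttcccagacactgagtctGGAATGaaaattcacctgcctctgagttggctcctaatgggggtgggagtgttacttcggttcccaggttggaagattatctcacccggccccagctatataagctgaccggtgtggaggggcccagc
CTGF held 3 matches, starting at −169, −104 and −95 bases from the start site, and ANKRD1 held 2, at −220 and −128. Of 35116 promoter windows of this length in the RefSeq table, 11.9% held at least 1 match, 0.940% at least 2 and 0.0826% at least 3. YAP1 held 1 match (at −162), and 1 of the 2 AMOTL2 windows held 1 (at −69). WWTR1, TEAD2 and TEAD3 held none in their windows. A match is a run of letters, and binding was not measured here.

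Among the 4 targets, 1 was called in limma (ANKRD1, lower), where 5.83% of all tested genes were lower. It is the 1 call counted above for all members. ANKRD1 (ENSG00000148677) encodes an ankyrin-repeat protein of muscle sarcomeres and of the nucleus and lies on chromosome 10 from 90912096 to 90921087. It measured 18.0, 19.5 and 15.5 FPKM in the siC libraries and 11.1, 9.98 and 8.48 FPKM in the siMSI1 libraries, with 442 to 698 and 241 to 325 reads. The lowest siC library was above the highest siMSI1 library (two-sided exact permutation p = 0.1). In RNA of whole cultures, a lower level in each cell and fewer cells with the mRNA cannot be told apart. Its log2 fold change was −0.84 (standard error 0.122, 95% interval −1.12 to −0.55, adjusted p = 0.00283 from limma). The fall kept its direction in the 16 alternative fits and was called in 11 of them. Its adjusted p was above 0.01 without siC replicate 1 (0.0154), without siC replicate 2 (0.0103) and without siMSI1 replicate 2 (0.0108), and also without the filter on low genes (0.0125) and with limma's plain variance moderation (0.0132).

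CTGF (ENSG00000118523), on chromosome 6 from 131948176 to 131951372, encodes a secreted matricellular protein. It measured 136, 137 and 124 FPKM in the siC libraries and 168, 161 and 168 FPKM in the siMSI1 libraries, with 4158 to 5804 reads per library. All siMSI1 libraries were above all siC libraries (two-sided exact permutation p = 0.1). Its log2 fold change of 0.33 (standard error 0.0664, 95% interval 0.18 to 0.49) had an adjusted p of 0.0103 from limma, just above the threshold. The direction held in all 16 alternative fits, and the adjusted p ranged from 8.99e-07 to 0.046, with a call in 3 of them. LINC01013, on the opposite strand at CTGF, had 1 to 7 reads per library.

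CYR61 (ENSG00000142871), on chromosome 1 from 85580761 to 85584589, encodes another matricellular protein of the same family. It measured 32.8, 32.0 and 31.3 FPKM in the siC libraries and 33.1, 30.9 and 30 FPKM in the siMSI1 libraries. The groups overlapped, and its log2 fold change was −0.03 (95% interval −0.18 to 0.12, adjusted p = 0.75 from limma). AMOTL2 (ENSG00000114019), on chromosome 3 from 134355347 to 134375479, is a motin, a junction protein that binds YAP1 and retains it outside the nucleus. It measured 6.07, 6.70 and 5.96 FPKM in the siC libraries and 5.86, 5.51 and 6.04 FPKM in the siMSI1 libraries. These values overlapped, with a log2 fold change of −0.10 (95% interval −0.30 to 0.09, adjusted p = 0.41 from limma).

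Ratios within a library set the targets side by side without the scaling between libraries. The FPKM ratio of CTGF to CYR61 was 4.14, 4.28 and 3.95 in siC and 5.08, 5.23 and 5.62 in siMSI1. The ratio of CTGF to ANKRD1 was 7.55, 7.01 and 7.96 in siC and 15.1, 16.2 and 19.9 in siMSI1. The ratio of CYR61 to ANKRD1 was 1.82, 1.64 and 2.02 in siC and 2.97, 3.09 and 3.54 in siMSI1. None of the 3 ratios overlapped between the groups. For CTGF to ANKRD1 this follows from the single genes, as CTGF was higher and ANKRD1 lower in every siMSI1 library. Each of the other ratios set CTGF or ANKRD1 against CYR61, whose values overlapped between the groups. The 3 ratios were chosen after the values were seen and are given without a test.

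**Figure D3:**
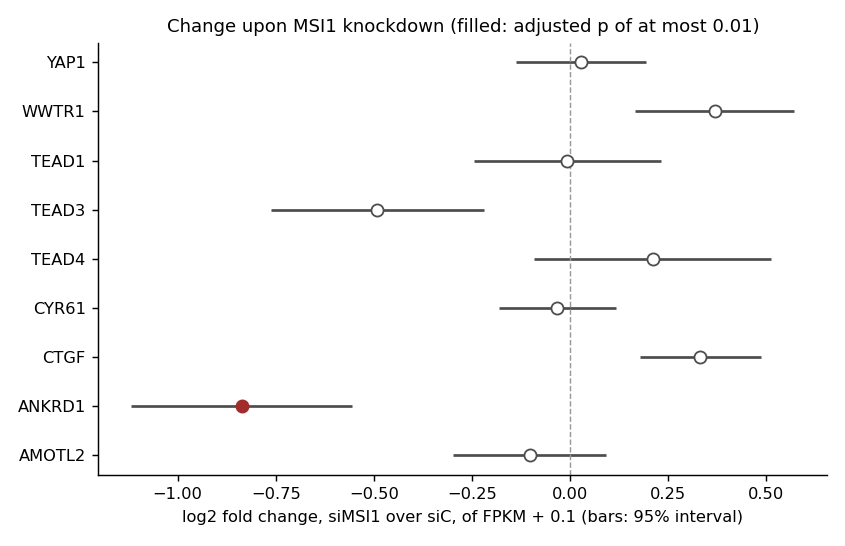
Log2 fold change of siMSI1 over siC on log2(FPKM + 0.1) for the 9 tested members, with the 95% interval from limma as a bar. ANKRD1 (−0.84) is filled, as it is past an adjusted p of 0.01, the intervals of WWTR1, CTGF and TEAD3 do not reach 0, and those of the other members cross it.

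The kinase cascade upstream of the coactivators was taken as a list of 24 genes, which includes the STRIPAK phosphatase scaffold that switches the cascade off. Of 23 tested, 2 were lower in siMSI1, where 5.83% of all tested genes were lower, and none of the rest was past the threshold in limma, with a median log2 fold change of −0.02. STRN4, a striatin of the STRIPAK complex, fell from 17.6 ± 0.891 to 11.6 ± 1.29 FPKM (SD, n = 3 each; log2 fold change −0.61, adjusted p = 0.00351 from limma). NF2, the tumor suppressor merlin that activates the LATS kinases, fell from 22.8 ± 0.637 to 16.9 ± 1.12 FPKM (log2 fold change −0.43, adjusted p = 0.00454). The kinases themselves were not past the threshold. The log2 fold changes were 0.06 for LATS1 (adjusted p = 0.68), 0.21 for LATS2 (0.26), −0.37 for STK3 (0.30) and −0.25 for STK4 (0.086), where each value in parentheses is a limma adjusted p. The kinase nearest to the threshold was MAP4K4 (log2 fold change −0.29, limma adjusted p = 0.0141). TAOK2 came nearest among the kinases with the opposite sign (0.27, limma adjusted p = 0.056). STRN4 was called in 11 and NF2 in 9 of the 16 alternative fits. Both calls were lost without the filter on low genes, with plain variance moderation, without siC replicate 1, without siC replicate 3 and without siMSI1 replicate 1, and NF2 alone was lost without siC replicate 2 and without siMSI1 replicate 2.

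Of 21 regulators at junctions and the membrane, 17 were tested and 1 was called (lower), where 5.83% of all tested genes were lower, with a median log2 fold change of −0.01. AMOT, the founding motin, fell from 10.7 ± 0.685 to 7.22 ± 0.266 FPKM (SD, n = 3 each; log2 fold change −0.55, adjusted p = 0.0024 from limma). Its paralog AMOTL1 was at 7.96 ± 0.352 FPKM in siC and 6.21 ± 0.340 FPKM in siMSI1 (log2 fold change −0.35, adjusted p = 0.0152). FAT4, an atypical cadherin of the same list, had the opposite sign, at 1.81 ± 0.129 FPKM in siC and 2.74 ± 0.186 FPKM in siMSI1 (log2 fold change 0.57, adjusted p = 0.0112), and was not past the threshold either. With AMOTL2, 1 of the 3 motins was past the threshold (lower), where 5.83% of all tested genes were lower. The call of AMOT was lost without siC replicate 1, siC replicate 2, siMSI1 replicate 1 or siMSI1 replicate 2, with adjusted p-values of up to 0.0174.

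Of 7 TEAD cofactors, 4 were tested and 1 was called (higher), where 5.15% of all tested genes were higher. VGLL4, which competes with YAP1 for the TEADs and represses their targets, rose from 28.4 ± 0.187 to 35.6 ± 0.709 FPKM (SD, n = 3 each; log2 fold change 0.32, adjusted p = 0.00586 from limma). All siMSI1 values of VGLL4 (35.1 to 36.4 FPKM) were above all siC values (28.2 to 28.6 FPKM). It passed in 9 of the 16 alternative fits, and the call was lost when any library but siMSI1 replicate 3 was left out. The call of VGLL4 was also lost without the filter on low genes and with plain variance moderation. VGLL1, VGLL2 and VGLL3 were not tested, at less than 0.5 FPKM on average.

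The list of 18 other YAP/TAZ target genes was used to look past the 4 member targets. It shares LATS2 with the kinase cascade list and PTPN14 and FJX1 with the list of junction and membrane regulators. Of 16 tested, 1 was lower and 2 were higher in siMSI1, where 5.83% of all tested genes were lower and 5.15% higher, and the median log2 fold change was 0.23, against 0.00 for all tested genes. CCDC80, a matrix protein, rose from 0.905 ± 0.0452 to 2.07 ± 0.113 FPKM (SD, n = 3 each; log2 fold change 1.11, adjusted p = 0.00146 from limma) and was called in all 16 alternative fits. AXL, a receptor tyrosine kinase, rose from 3.14 ± 0.357 to 6.42 ± 1.16 FPKM (95% interval of the log2 fold change 0.65 to 1.35, adjusted p = 0.00328). F3, the tissue factor that starts coagulation, fell from 59.2 ± 2.83 to 42.7 ± 2.86 FPKM (log2 fold change −0.47, adjusted p = 0.00378). AXL and F3 were each called in 10 of the 16 alternative fits. Only CCDC80 of this list was past the threshold without siC replicate 1, 2 or 3 in turn, without the filter on low genes and with plain variance moderation, while AXL alone was lost without siMSI1 replicate 1 and F3 alone without siMSI1 replicate 2. So the called targets, with ANKRD1 among the members, went in both directions.

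**Figure D4:**
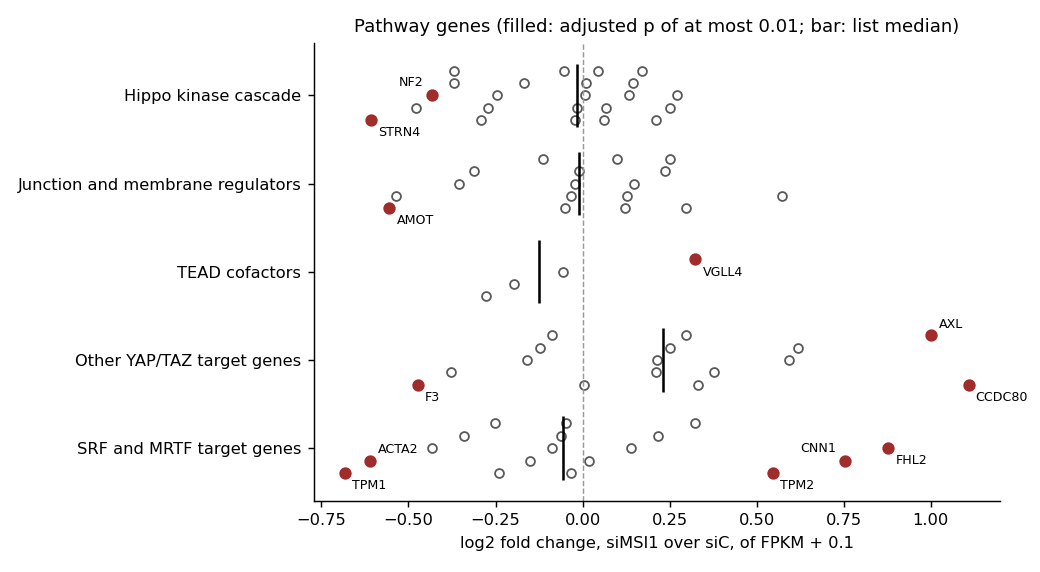
Log2 fold change of siMSI1 over siC for the tested genes of 5 pathway lists, 1 point per gene, filled at an adjusted p of at most 0.01, with the list median as a bar and the median of all tested genes as a dashed line. The list medians lie between −0.13 and 0.23, and filled points of the target lists stand on both sides of 0.

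The genes whose pattern over the 6 libraries was most like that of YAP1 were MED13, ZNF658 and AC010201.1 (Pearson r of log2(FPKM + 0.1) of 0.999, 0.992 and 0.985). Those most like CYR61 were AC011461.1, DDX55 and ARHGEF3 (r of 0.995, 0.979 and 0.975). These are the highest of 15069 genes over 6 libraries and are given as a description.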

How the data were processed

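Per the labels and the study's methods, the authors clipped reads with cutadapt 1.14, aligned them to GRCh38 with HISAT2 2.1.0, counted reads per gene with featureCounts 1.5.3 on Ensembl 89 and compared the groups with edgeR 3.18.1. The deposited table lists FPKM per gene for every library beside gene length and the authors' own fold changes and p-values, which were not used. The kit was strand-specific, and the strand setting of the counting is not given in the sources used here.

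FPKM times gene length was a whole multiple of the value of 1 read (tolerance 0.01) for 100% of values above 0 in each library, which gave the reads. A floor of 3 reads is 0.0829 to 0.114 FPKM for a gene of 2 kb, for counting error only. limma 3.58.1 in R 4.3.3 (lmFit, eBayes with trend and robust, two-sided) was fitted to log2(FPKM + 0.1) without a block. On simulated libraries with planted changes it recovered their size, but it called few of the smallest changes, and a larger share of its calls was false than the threshold allows. Genes named are the members, MSI1, cell type markers, overlapping genes, up to 4 called genes per list and 3 like YAP1 and CYR61. LATS1, LATS2, STK3, STK4, MAP4K4, TAOK2, AMOTL1, FAT4, PTPN14, FJX1, VGLL1, VGLL2, VGLL3 and ACTA2 were named after their values were seen. The members and lists were chosen with earlier results of these data known. Groups came from sample titles. Alternatives changed the added value, filter, scaling, variance moderation, threshold, block or test (limma voom on the reads), or left out 1 library. The voom fits scaled each library to its reads on genes alone, so they changed the scaling as well as the test. Positions came from GENCODE 44. Python 3.11.15, pandas 2.3.3, SciPy 1.17.1 and matplotlib 3.10.9 did the rest.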

Additional observations from a re-analysis of the deposited data

How the results depend on the processing

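The number of members past the threshold (1) was 0 with no filter on low genes, 0 with plain variance moderation, 2 at a mean FPKM of at least 1, 3 with voom, 4 with voom and the replicate block and 4 at an adjusted p of at most 0.05, and 0 to 1 with a library left out. The number of list genes past the threshold was 12 of 75 tested, with genes in more than 1 list counted once. Of all tested genes, 11.0% were called in the main fit (1655 of 15069). The number of list genes was 6 of 82 with no filter, 5 with plain moderation, 20 with voom and 33 with voom and the replicate block. At an adjusted p of at most 0.05 it was 24, and with a library left out it was 4 to 14. Over all tested genes the number was 792 of 29846 with no filter and 1851 of 13040 at a mean FPKM of at least 1. Of the 15069 genes it was 847 with plain moderation, 2690 with voom and 4870 with voom and the replicate block. With a library left out it was 528 (without siC replicate 1) to 1603. It was not counted at an adjusted p of at most 0.05, so no share stands beside the counts at that threshold. The cause of these moves was not tested, except that no filter raised the number of genes tested to 29846. The difference in the TEAD3 share (−6.26 percentage points) was −3.84 in reads not scaled to length. Whether the replicate numbers pair the libraries was not settled. Same-numbered libraries deviated from their group means with correlations of −0.0661 to 0.0830, and not every library correlated best with its own number. The replicate block raised the number of all tested genes called from 1655 to 2250 with limma on log2 FPKM and from 2690 to 4870 with voom. With the replicate block, 2 members (WWTR1 and ANKRD1) were called. No called member changed its direction in any alternative. Depth limits TEAD2 most, at 6 to 27 reads per library.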

Other observations

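SRF with its MRTF coactivators responds to actin and shares target genes with YAP/TEAD, so 18 SRF and MRTF target genes were listed beside the members. All 18 were tested, 2 were lower and 3 higher in siMSI1 (limma), where 5.83% of all tested genes were lower and 5.15% higher, and their median log2 fold change was −0.06. FHL2, a LIM-domain cofactor, rose from 5.64 ± 0.244 to 10.4 ± 0.257 FPKM, CNN1, a calponin, from 4.64 ± 0.0736 to 7.90 ± 0.381 FPKM, and TPM2, a tropomyosin, from 11.8 ± 0.648 to 17.3 ± 0.987 FPKM (SD, n = 3 each). TPM1, another tropomyosin, fell from 26.5 ± 1.25 to 16.5 ± 0.325 FPKM and ACTA2, smooth muscle actin, from 63.5 ± 3.25 to 41.8 ± 5.45 FPKM (SD, n = 3 each). Their log2 fold changes were 0.88 for FHL2, 0.75 for CNN1, 0.55 for TPM2, −0.68 for TPM1 and −0.61 for ACTA2. FHL2, CNN1 and TPM1 were called in all 16 alternative fits, TPM2 in 14 and ACTA2 in 9.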
